A study of Mus musculus with 20 samples.

Results

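The 10 genes described here encode subunits of voltage-gated calcium channels: the pores Cacna1c, Cacna1d, Cacna1g and Cacna1h, the cytoplasmic beta subunits Cacnb1 and Cacnb2, the extracellular alpha2delta subunits Cacna2d1, Cacna2d2 and Cacna2d3, and the gamma subunit Cacng6. They were taken by symbol from count files that list 55367 genes, where all 10 were found, and they are 10 of 26 voltage-gated calcium channel genes listed there. The other 16 were kept as a separate list. RNA came from hearts of C57BL/6J pups taken on postnatal day 4, with 5 libraries in each of 4 groups: left atria after hyperoxia (100% oxygen since birth), left atria in room air (21% oxygen), left ventricles after hyperoxia, and left ventricles in room air. All groups are the same inbred strain, for which the labels name no other allele or agent, and the dams that nursed the pups were exchanged daily between the oxygen levels. The series description counts a library as 1 mouse of its group, gives no sex, and does not say whether an atrium and a ventricle of the same number came from 1 heart. The comparisons ask which channel subunit transcripts differ with neonatal hyperoxia in each chamber, whether the chambers respond differently, and how the chambers differ at each oxygen level.

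Voltage-gated calcium channels open when the membrane depolarises and let calcium into the cell. In heart muscle the L-type current carries the plateau of the action potential and triggers calcium release from the sarcoplasmic reticulum, while T-type channels open at more negative voltages, are prominent in the developing heart and remain in pacemaking tissue in the adult. The pore subunit sets the channel type, and beta and alpha2delta subunits govern how much of it reaches the surface and how it gates.

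The libraries held between 26510081 and 38244117 counted reads. Values are CPM, the counts of a gene relative to the scaled size of its library, and a gene was called when its edgeR quasi-likelihood adjusted p was below 0.05 over all 16598 genes tested. All 10 subunits passed the filter on low counts, Cacna2d3 and Cacng6 through the groups in which they were higher. Summed atrial and ventricular heart muscle markers separated the chambers as labelled. The atrial list held 26000 to 50000 CPM in hyperoxic and 18200 to 23200 CPM in room-air atria, against 346 to 957 CPM in hyperoxic and 1130 to 2040 CPM in room-air ventricles. Most of the atrial sum came from Nppa, Myl7 and Myl4. Of the 11 atrial markers Kcna5 alone went the other way, averaging 3.97 and 7.27 CPM in hyperoxic and room-air atria, against 34.3 and 48.2 CPM in ventricles. The ventricular list held 405 to 801 and 484 to 929 CPM in hyperoxic and room-air atria, against 21100 to 24000 and 22600 to 41900 CPM in ventricles. Myl7, an atrial myosin light chain, reached 530 CPM in room-air ventricle 1 and lay between 2.66 and 128 CPM in hyperoxic ventricles. Myl2, a ventricular myosin light chain, was at 328 CPM in room-air atrium 1 and between 7.42 and 15 CPM in the other 4. In 3 libraries (hyperoxic atria 2 and 4, room-air ventricle 4) the level fell with exon length, relative to the mean of all libraries of the chamber. Their slopes were -0.29, -0.29 and -0.22, against -0.07 to 0.14 in the other 17, and these 3 are called tilted below. More Y-linked than Xist reads were found in 1 of 5 hyperoxic atria, 5 of 5 room-air atria, 2 of 5 hyperoxic ventricles and 5 of 5 room-air ventricles. This measure moves with oxygen, and the 1 hyperoxic atrium with more Y-linked reads is also tilted.

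The subunits span 1977 to 21191 exonic bases with a median of 9950, against a median of 3530 for protein-coding genes. In this bulk tissue fewer cells of a type and less RNA per cell cannot be told apart.

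Per kilobase of exon, the order of the subunits differed between the groups. In hyperoxic atria Cacna2d1 led with a level of 4.31 ± 0.255 CPM per kb (SD, n = 5), above Cacna1g at 2.7 ± 1.2, Cacna1c at 2.66 ± 0.881, Cacnb1 at 2.43 ± 0.307 and Cacnb2 at 2.10 ± 0.285 CPM per kb. The libraries of these last 4 overlap from each gene to the next in that order. In room-air atria Cacna1g came first with 7.22 ± 0.919 CPM per kb, followed by Cacna1c at 5.24 ± 0.525 and Cacna2d1 at 5.02 ± 0.198, whose ranges overlap in that order, and then Cacnb2 at 3.34 ± 0.238 CPM per kb, below all 3. Without division by exon length Cacna1c averaged 111 CPM there, above Cacna1g at 73.2 CPM.

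In both ventricular groups Cacna1c had the highest mean, with 11.1 ± 1.33 CPM per kb in hyperoxic and 9.34 ± 1.67 in room-air ventricles (SD, n = 5 each). Cacna2d1 followed with 7.34 ± 0.339 and 6.46 ± 0.267 CPM per kb, below every Cacna1c value in hyperoxic ventricles and overlapping them in room-air ventricles. From Cacna2d1 down to Cacnb2, the fifth in both groups, each gene overlapped the next. Cacng6 stood among the 4 highest subunits in both ventricular groups, at 6.81 ± 1.57 and 5.05 ± 1.03 CPM per kb, and was last in both atrial groups, at 0.00497 ± 0.00681 and 0.0553 ± 0.0459. Without division by exon length Cacng6 averaged 13.46 and 9.985 CPM in hyperoxic and room-air ventricles, below Cacna1h at 30.55 and 27.31 CPM. Its ventricular rank thus rests on the exon lengths used. Cacna1d, Cacna2d2 and Cacna2d3 averaged below 1.2 CPM per kb in every group.

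**Figure D1:**
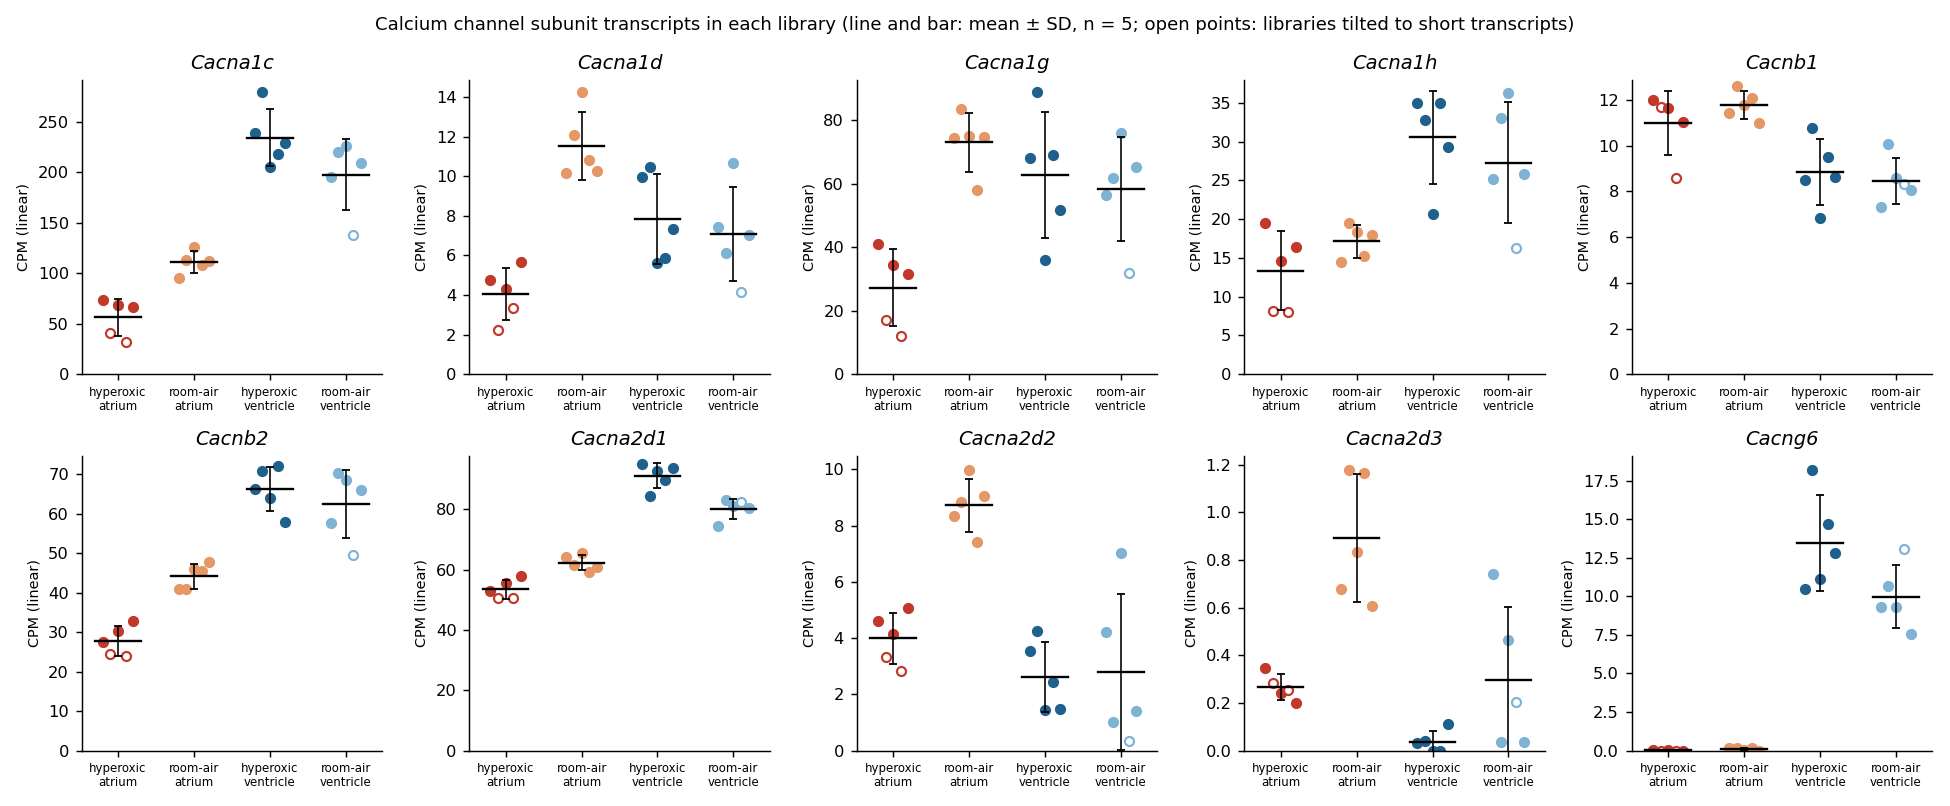
CPM on a linear axis for each subunit in every library, with hyperoxic atria, room-air atria, hyperoxic ventricles and room-air ventricles from left to right; lines and bars are the mean and SD of 5 libraries (bars end at 0), and open points are the 3 tilted libraries. Cacna1c, Cacna1d, Cacna1g, Cacnb2, Cacna2d1, Cacna2d2 and Cacna2d3 show all hyperoxic atria below all room-air atria, and Cacng6 is near 0 in all 10 atria.

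Promoter windows are shown for the gene with the largest chamber difference at both oxygen levels, Cacng6, and for Cacna2d2, the subunit with the largest difference in favour of the atrium in room air. RefSeq (GRCm38.p6) windows were available for 8 of the 10 subunits, 13 windows in all, and the 250 bases before each start were read 5′ to 3′ on the gene's strand. Capitals mark matches to the muscle MCAT element (CATTCC, which TEAD factors bind) and to a GC box (GGGCGG), read on either strand.
Cacng6, chr7:3424412-3424661, plus strand: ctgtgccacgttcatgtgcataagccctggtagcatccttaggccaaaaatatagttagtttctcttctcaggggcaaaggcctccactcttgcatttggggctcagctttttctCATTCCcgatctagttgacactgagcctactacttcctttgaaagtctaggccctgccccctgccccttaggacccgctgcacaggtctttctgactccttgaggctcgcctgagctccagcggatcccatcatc
Cacna2d2, chr9:107399630-107399879, plus strand: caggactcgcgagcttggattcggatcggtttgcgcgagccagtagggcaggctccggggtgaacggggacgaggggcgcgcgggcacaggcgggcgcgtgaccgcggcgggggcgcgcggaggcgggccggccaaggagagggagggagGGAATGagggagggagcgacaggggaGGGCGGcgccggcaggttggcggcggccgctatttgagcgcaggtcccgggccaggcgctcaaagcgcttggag
The Cacng6 window has a GC content of 52.8% with 5 CG pairs, and the Cacna2d2 window 74.4% with 34 CG pairs; the median of all 32851 windows was 52.4%. The MCAT letters occur once in each of these windows and in none of the other subunits' windows, against 12.6% of all windows. A GC box is in 7 of the 13 windows and in 32.7% of all windows, and a TATA box (TATAAA) is in 1 of the 13 and in 12.4% of all. Both windows lie inside the gene as GENCODE bounds it on the same build, since the RefSeq start used is farther along.

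In the left atrium 8 of the 10 subunits were lower after hyperoxia, none was higher, and Cacna1h and Cacnb1 were not called. Of all genes tested 43.9% were called in this comparison, 24.2% lower and 19.7% higher. The median log2 difference of the subunits was -1.05, against -0.06 for all genes tested, and in 7 of the 10 the hyperoxic atria lay wholly below the room-air atria, as they did in 19.3% of all genes tested (32.9% without overlap in either direction). Without Cacna2d3 and Cacng6, which passed the filter through their higher groups, 6 of 8 were called. Cacna2d3 is also among the 7 in which the atria did not overlap. All 10 log2 differences were below 0.

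Cacna1c (chromosome 6, 118587240 to 119196418, minus strand) encodes the pore of the L-type channel of working heart muscle. It had 73.6, 41.1, 68.2, 31.7 and 67.0 CPM in hyperoxic atria 1 to 5, against 95.3, 113, 126, 108 and 113 CPM in room-air atria 1 to 5. Every hyperoxic atrium lay below every room-air atrium, and the tilted libraries 2 and 4 were the lowest. The log2 difference was -0.98 (SE 0.18, adjusted p = 0.00014), a level 1.97-fold lower after hyperoxia.

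Cacna1d (chromosome 14, 30039939 to 30491455, minus strand) encodes the other cardiac L-type pore, which opens at more negative voltages and serves pacemaking and atrial cells. It had 4.74, 2.21, 4.30, 3.32 and 5.67 CPM in hyperoxic atria, against 10.2, 12.1, 14.3, 10.8 and 10.3 CPM in room-air atria. The highest hyperoxic atrium stood well under the lowest room-air atrium. It fell by 1.51 on the log2 scale (SE 0.24, adjusted p = 3.1e-05), which is 2.84-fold lower.

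Cacna1g (chromosome 11, 94408391 to 94474198, minus strand) encodes a T-type pore. It had 41.1, 17.2, 34.5, 12.2 and 31.5 CPM in hyperoxic atria, against 74.6, 83.5, 75.2, 58.0 and 74.7 CPM in room-air atria. The groups did not overlap, and the tilted libraries were again the lowest. The log2 difference was -1.42 (SE 0.28, adjusted p = 0.00026), 2.67-fold lower.

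Cacna1h (chromosome 17, 25374285 to 25433783, minus strand) encodes the second cardiac T-type pore. It had 19.5, 8.13, 14.6, 8.08 and 16.4 CPM in hyperoxic atria, against 14.5, 19.6, 18.4, 15.3 and 18 CPM in room-air atria. The 3 hyperoxic atria that were not tilted lay within the room-air range, and the tilted ones below it. The log2 difference was -0.36 with a 95% interval from -0.80 to 0.09 (adjusted p = 0.21).

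Of the beta subunits, Cacnb2 (chromosome 2, 14603088 to 14987908, plus strand) is the main partner of the cardiac L-type pore. It had 27.6, 24.5, 30.3, 24.0 and 32.8 CPM in hyperoxic atria, against 40.9, 40.9, 46.0, 45.4 and 47.9 CPM in room-air atria. All hyperoxic values were below all room-air values, with a log2 difference of -0.67 (SE 0.10, adjusted p = 2.3e-05). Cacnb1 (chromosome 11, 98001508 to 98023034, minus strand), best known as the skeletal muscle beta subunit, averaged 11.0 ± 1.39 CPM in hyperoxic and 11.8 ± 0.622 CPM in room-air atria (SD, n = 5 each). The 2 groups overlapped, and the log2 difference of -0.10 had a 95% interval from -0.33 to 0.13 (adjusted p = 0.53).

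The alpha2delta subunits were all lower. Cacna2d1 (chromosome 5, 15934691 to 16374511, plus strand), the form best known from heart and skeletal muscle, differed least, with 53.5 ± 3.17 CPM in hyperoxic and 62.3 ± 2.46 CPM in room-air atria (SD, n = 5 each). Its 5 hyperoxic atria, from 50.5 to 57.9 CPM, lay just below the 5 room-air atria, from 59.3 to 65.4 CPM, and the log2 difference was -0.22 (SE 0.06, adjusted p = 0.0081). Without hyperoxic ventricle 5, which enters the same fit, Cacna2d1 was at -0.14 (adjusted p = 0.077). Cacna2d2 (chromosome 9, 107399612 to 107529343, plus strand), known from cerebellar neurons, had 4.59, 3.31, 4.16, 2.84 and 5.08 CPM in hyperoxic atria, against 8.33, 8.83, 9.98, 7.42 and 9.07 CPM in room-air atria. These groups stood apart with no overlap. The log2 difference of Cacna2d2 was -1.12 (SE 0.44, adjusted p = 0.045) with a spread shared with the ventricles, and -1.06 (adjusted p = 0.00017) on the 10 atria alone, a fit in which Cacna2d1 was not called (-0.16, adjusted p = 0.088). Its call was lost in 22 of 35 other settings, among them without hyperoxic ventricle 1 or 5, without any 1 room-air atrium and without any 1 of hyperoxic atria 1 to 4, where Cacna2d2 lay between -1.18 and -1.03 with adjusted p from 0.05 to 0.096. Cacna2d3 (chromosome 14, 28904943 to 29721864, minus strand), also mainly a neuronal form, was scarce: it had 14, 10, 10, 8 and 7 counts in hyperoxic atria, against 24, 50, 32, 45 and 21 counts in room-air atria. All 5 hyperoxic counts were below all 5 room-air counts, the log2 difference was -1.73 (SE 0.54, adjusted p = 0.012), and the ratio of the summed counts per library size was 0.295 (95% interval 0.21 to 0.407, counting error only).

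Cacng6 (chromosome 7, 3424195 to 3435667, plus strand), a gamma subunit that in cell culture lowers T-type current, was almost absent from the atrium. It had 1, 0, 1, 0 and 0 counts in hyperoxic atria, against 7, 6, 1, 7 and 0 counts in room-air atria. A library at 0 allows up to 0.0849 to 0.0958 CPM (3 counts). The groups overlapped; the fit called it lower (adjusted p = 0.0066), and the ratio of 2 to 21 summed counts was 0.0985 with a 95% interval from 0.0112 to 0.403. This call was lost with limma voom, and without the tilted libraries and room-air atrium 1, the atrium with 328 CPM of Myl2.

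**Figure D2:**
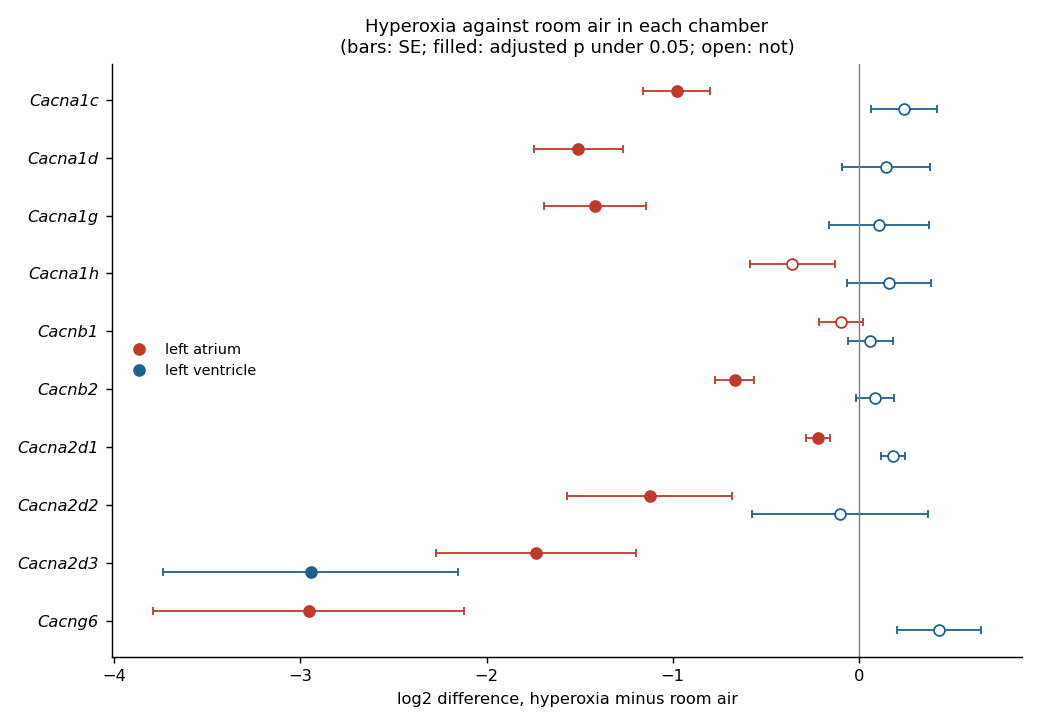
Log2 difference between hyperoxia and room air for each subunit in left atrium and left ventricle, with the standard error as bars and filled points where the adjusted p was under 0.05. The atrial points run from -0.10 for Cacnb1 to -2.96 for Cacng6, and in the ventricle Cacna2d3 at -2.95 is the filled point.

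The size of these differences moved with the tilted libraries. In 7 of the 10 subunits both tilted hyperoxic atria lay below the other 3 hyperoxic atria, against 34.2% of all genes tested. In 7 of the 10 those other 3 lay below all 5 room-air atria, against 25.7%. The latter 7 include Cacna2d3, which passed the filter through its higher groups. Without the 3 tilted libraries 6 subunits were called lower: Cacna1c at -0.67 (adjusted p = 4.6e-06), Cacna1d at -1.23 (3e-05), Cacna1g at -1.03 (0.0014), Cacnb2 at -0.55 (2.7e-05), Cacna2d3 at -1.74 (0.034) and Cacng6 at -2.45 (0.036). Cacna2d1 was then at -0.17 (adjusted p = 0.051), Cacna2d2 at -0.92 (0.13) and Cacna1h at -0.02 (0.92).

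When each library's length slope was added as a covariate, Cacna1c was at -0.59, Cacna1d at -1.09 and Cacna1g at -0.87, all still called, while Cacna1h was at 0.11 (adjusted p = 0.62). Y-linked reads entered the models as a yes or no, whether a library held more Y-linked than Xist reads. With the slope and this measure both as covariates 3 subunits were called: Cacna1d at -0.95 (adjusted p = 0.02), Cacnb2 at -0.49 (0.0055) and Cacng6 at -3.07 (0.015). Cacna1c was then at -0.33 (adjusted p = 0.062) and Cacna1g at -0.51 (0.23).

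**Figure D3:**
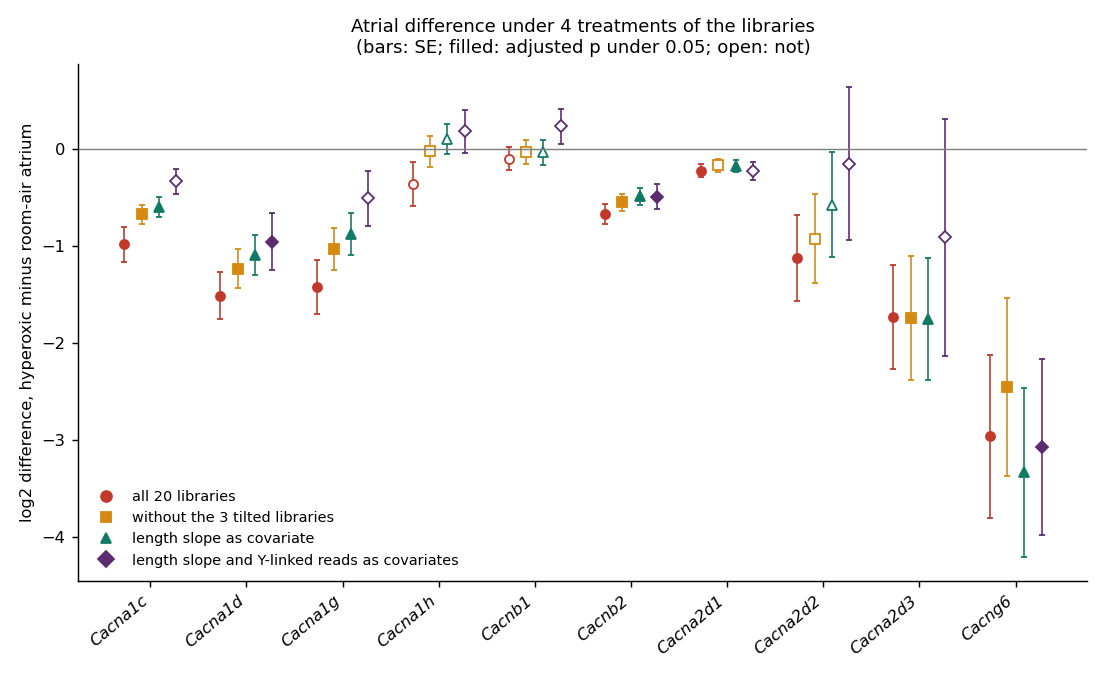
Log2 difference between hyperoxic and room-air atria for each subunit, in all 20 libraries, without the 3 tilted ones, with the length slope as a covariate, and with the slope and Y-linked reads as covariates; bars are standard errors and filled points have an adjusted p under 0.05. Cacna1d, Cacnb2 and Cacng6 are filled in all 4 treatments, and Cacna1c moves between -0.98 and -0.33. The values of Cacng6 rest on 2 and 21 summed counts in hyperoxic and room-air atria.

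The library labels give no sex, and with 1 of 5 hyperoxic atria holding more Y-linked reads, sex and oxygen cannot be told apart in the other 4. With only Y-linked reads added to the model 6 subunits were called lower, among them Cacna1c at -1.04 (adjusted p = 0.0036), Cacna1d at -1.63 (0.0013), Cacna1g at -1.50 (0.0063) and Cacnb2 at -0.77 (0.00028).

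Markers of other cells moved with oxygen in the same atria, where 43.9% of all genes tested were called (24.2% lower, 19.7% higher). The 10 sinus node and conduction markers summed to 89.6 to 123 CPM in hyperoxic and 176 to 191 CPM in room-air atria, with 6 of the 9 tested lower and none higher; Hcn4, the pacemaker channel, averaged 3.54 ± 1.06 and 11.4 ± 2.48 CPM (SD, n = 5 each). Most of this sum came from Tbx18, with means of 42.7 and 61.3 CPM, and Gjc1, with 37 and 61.5 CPM. Isl1 averaged 0.0192 and 0.0312 CPM, Tbx3 0.655 and 1.53, and Shox2 0.764 and 1.35. The neuron and glia list summed to 15.7 to 21.7 CPM in hyperoxic and 25.8 to 33.9 CPM in room-air atria, with 4 of 7 tested lower and Chrna3 at 0 in hyperoxic atria. The skeletal muscle list summed to 39.0 to 47.5 CPM in hyperoxic and 68.4 to 80.6 CPM in room-air atria (2 of 7 tested lower, 1 higher, Pax7 at 0 in both). Myh8 made up most of the skeletal muscle sum, at 33.8 and 67.6 CPM, while Myh1 averaged 1.72 and 0.262 CPM.

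The summed fibroblast list was 4900 to 6920 CPM in hyperoxic and 8900 to 9720 CPM in room-air atria (6 of 8 lower, 1 higher), and the endothelial list 791 to 1020 and 1100 to 1300 CPM (7 of 8 lower, 1 higher). The smooth muscle and pericyte list overlapped, at 1160 to 1530 CPM in hyperoxic and 1390 to 1570 CPM in room-air atria (7 of 10 lower, 2 higher). Macrophage markers were higher, at 197 to 413 CPM in hyperoxic and 137 to 177 CPM in room-air atria (5 of 6 higher), as were epicardial markers, at 419 to 463 and 245 to 387 CPM (2 of 5 higher, none lower). Of the atrial heart muscle list 7 of 11 were lower and 2 higher. These counts stand beside 24.2% of all genes tested lower and 19.7% higher in the same comparison. The part of these marker shifts in the calcium channel differences was not tested.

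In the left ventricle 1 of the 10 subunits was called, against 10.9% of all genes tested (5.64% higher, 5.28% lower), and the median log2 difference of the 10 was 0.13. Without Cacna2d3 and Cacng6, 0 of 8 were called. The gene called was Cacna2d3, lower after hyperoxia with 1, 1, 0, 0 and 3 counts in hyperoxic ventricles 1, 2, 4, 5 and 6, against 19, 1, 14, 5 and 1 counts in room-air ventricles 1 to 5. The groups overlapped, and the 2 libraries at 0 allow up to 0.123 and 0.0973 CPM (3 counts). The log2 difference was -2.95 (SE 0.79, adjusted p = 0.023), and the ratio of the summed counts was 0.118 (95% interval 0.0362 to 0.298, counting error only). Room-air ventricles 1 and 3, which hold most of its reads, also have the most Myl7, at 530 and 310 CPM. Room-air ventricle 5 had 227 CPM of Myl7 and 1 count of Cacna2d3. With Myl7 as a covariate Cacna2d3 was at -1.29 (adjusted p = 0.50), in a fit that called 0.681% of all genes tested in this comparison. The call of Cacna2d3 was lost in 8 of 33 other settings. Among these, Cacna2d3 was at -2.69 without hyperoxic ventricle 4 (adjusted p = 0.05), at -2.63 without hyperoxic ventricle 5 (0.061) and at -2.31 without room-air ventricle 1 (0.074).

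Cacna2d1 had 95.1, 84.6, 92.8, 89.6 and 93.8 CPM in hyperoxic ventricles, against 74.6, 82.9, 81.0, 82.3 and 80.4 CPM in room-air ventricles. All hyperoxic ventricles were above all room-air ventricles, yet the log2 difference of 0.18 (SE 0.06) had an adjusted p of 0.063. The share of all genes tested without overlap was not computed for this comparison. Cacna2d1 was called in 4 other settings, among them without the tilted libraries (0.19, adjusted p = 0.03).

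The pores gave values around or slightly above 0 with wide intervals. Cacna1c averaged 234 ± 28.2 CPM in hyperoxic and 198 ± 35.4 CPM in room-air ventricles (SD, n = 5 each), a log2 difference of 0.24 (95% interval -0.10 to 0.59). Cacna1d was at 0.15 (-0.32 to 0.61), Cacna1g at 0.11 (-0.42 to 0.64) and Cacna1h at 0.16 (-0.28 to 0.60). Room-air ventricle 4, which is tilted, was the lowest of its group for all 4 pores, and with a covariate for the length slope the 4 values were -0.10, -0.19, -0.37 and -0.24, with adjusted p from 0.25 to 0.56.

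The remaining 4 were not called either. Cacng6 had 10.4, 18.2, 11.1, 14.7 and 12.8 CPM in hyperoxic ventricles, against 9.29, 10.7, 9.34, 13.1 and 7.57 CPM in room-air ventricles, with a log2 difference of 0.43 (95% interval -0.01 to 0.87, adjusted p = 0.20). Cacna2d2 lay between 1.44 and 4.26 CPM in hyperoxic ventricles, against 4.22, 1.02, 7.01, 0.329 and 1.41 CPM in room-air ventricles, which spread more widely. Its 2 highest room-air ventricles are numbers 1 and 3, those with the most Myl7. Room-air ventricle 5 had 227 CPM of Myl7 with Cacna2d2 at 1.41 CPM. The relation of Cacna2d2 to Myl7 was not tested. Cacnb1 and Cacnb2 were at 0.06 and 0.09 on the log2 scale, with 95% intervals from -0.18 to 0.30 and from -0.12 to 0.29.

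The responses of the chambers were then compared directly, as the atrial minus the ventricular log2 difference. They differed for 6 of the 10 subunits, all lower in the atrium, against 36.5% of all genes tested (19.5% lower and 17.0% higher). Without Cacna2d3 and Cacng6, 5 of 8 were called. Cacna1c differed by -1.22 (SE 0.25, adjusted p = 0.00097), Cacna1d by -1.65 (SE 0.34, 0.00092) and Cacna1g by -1.53 (SE 0.38, 0.0043). Cacnb2 differed by -0.75 (SE 0.15, adjusted p = 0.00059), Cacna2d1 by -0.40 (SE 0.09, 0.0019) and Cacng6 by -3.39 (SE 0.86, 0.0047). The call of Cacng6, which was almost absent from the atria, was lost with limma voom.

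The main L-type pore, its beta and alpha2delta partners, the second L-type pore and 1 of the T-type pores are among these 6. For Cacna1h the difference between the responses was -0.52 (95% interval -1.14 to 0.10), for Cacnb1 -0.16 (-0.49 to 0.17), for Cacna2d2 -1.02 (-2.29 to 0.25) and for Cacna2d3 1.21 (-0.65 to 3.08). Without room-air ventricle 3 the difference for Cacna2d2 was called (-1.72, adjusted p = 0.024). With a covariate for the length slope the difference for Cacna1g was -0.50 (adjusted p = 0.35). With slope and Y-linked reads as covariates, Cacnb2 at -0.43 (adjusted p = 0.047), Cacna2d1 at -0.35 (0.029) and Cacng6 at -3.96 (0.0065) were called, while Cacna1c at -0.34 (0.13), Cacna1d at -0.82 (0.1) and Cacna1g at -0.29 (0.63) were not.

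Between the chambers, 9 of the 10 subunits were called at each oxygen level: 2 higher and 7 lower in the atrium under hyperoxia, where 48.8% of all genes tested were called (25.2% higher, 23.6% lower), and 4 higher and 5 lower in room air, where 55.0% were called (28.7% higher, 26.3% lower). Without Cacna2d3 and Cacng6, 7 of 8 were called at each level. At each oxygen level 6 subunits had no overlap between the chambers, against 32.9% of all genes tested under hyperoxia and 46.5% in room air. These 6 include Cacng6 at both levels and Cacna2d3 under hyperoxia, which passed the filter through their higher groups. These comparisons share their libraries with the oxygen comparisons.

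Cacng6 was the furthest apart, a description of a gene that entered the test through its ventricular counts. It had 2 counts in all hyperoxic atria and 1894 in all hyperoxic ventricles, so that it was 1220-fold lower in the atrium (95% interval 338 to 10100, counting error only). In room air it had 21 counts in atria and 1322 in ventricles, 89.4-fold lower in the atrium (58.3 to 145). At both oxygen levels every atrium was below every ventricle.

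Cacna1c was also lower in the atrium at both oxygen levels, by -2.06 under hyperoxia (adjusted p = 4.3e-09) and by -0.83 in room air (0.00047). Cacnb2 differed by -1.25 (adjusted p = 1.4e-09) and -0.50 (0.00034), Cacna2d1 by -0.77 (1.4e-09) and -0.37 (5.4e-05), and Cacna1h by -1.19 (0.00015) and -0.67 (0.015), under hyperoxia and in room air in that order. Without room-air ventricle 3 Cacna1h in room air was at -0.55 (adjusted p = 0.051). For Cacna1c, Cacnb2 and Cacna2d1 the chambers did not overlap at either oxygen level.

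Cacna1d changed sides. Under hyperoxia it averaged 4.05 ± 1.33 CPM in atria and 7.84 ± 2.25 CPM in ventricles, lower in the atrium (log2 difference -0.95, SE 0.24, adjusted p = 0.0024). In room air it averaged 11.5 ± 1.71 CPM in atria and 7.08 ± 2.37 CPM in ventricles, higher in the atrium (0.70, SE 0.24, adjusted p = 0.016; SD, n = 5 each). The chambers overlapped at both levels: under hyperoxia hyperoxic atrium 5 reached 5.67 CPM, above hyperoxic ventricle 4 at 5.63 CPM. The room-air call of Cacna1d was lost with a covariate for the length slope (0.31, adjusted p = 0.20).

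Cacna1g was lower in the atrium under hyperoxia, with 27.3 ± 12.2 CPM in atria and 62.9 ± 19.9 CPM in ventricles (-1.2, SE 0.27, adjusted p = 0.00095). In room air it averaged 73.2 ± 9.31 CPM in atria and 58.3 ± 16.5 CPM in ventricles, which was not called (0.33, 95% interval -0.20 to 0.85). The room-air value of Cacna1g turned to -0.23 (adjusted p = 0.39) once the length slope was a covariate.

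Cacna2d3, Cacna2d2 and Cacnb1 were the others with values above 0 in the atrium. Cacna2d3 was higher under hyperoxia (2.79, adjusted p = 0.0052, 49 counts in atria and 5 in ventricles) and in room air (1.57, adjusted p = 0.019, 172 and 40 counts). These values describe a gene that passed the filter through its higher groups. Cacna2d2 was at 0.60 under hyperoxia (adjusted p = 0.30) and higher in room air, at 1.63 (adjusted p = 0.0049), a call that was lost with the length slope as a covariate (1.21, adjusted p = 0.053) and with slope and Y-linked reads (1.14, 0.078). Cacnb1 was higher by 0.32 (adjusted p = 0.033) and by 0.48 (adjusted p = 0.0021), and its call under hyperoxia was lost in 11 other settings, 7 of them with 1 library left out (0.24 without hyperoxic ventricle 4, adjusted p = 0.096). The room-air call of Cacna2d3 was lost without room-air ventricle 2 (1.29, adjusted p = 0.05) and with slope and Y-linked reads as covariates.

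**Figure D4:**
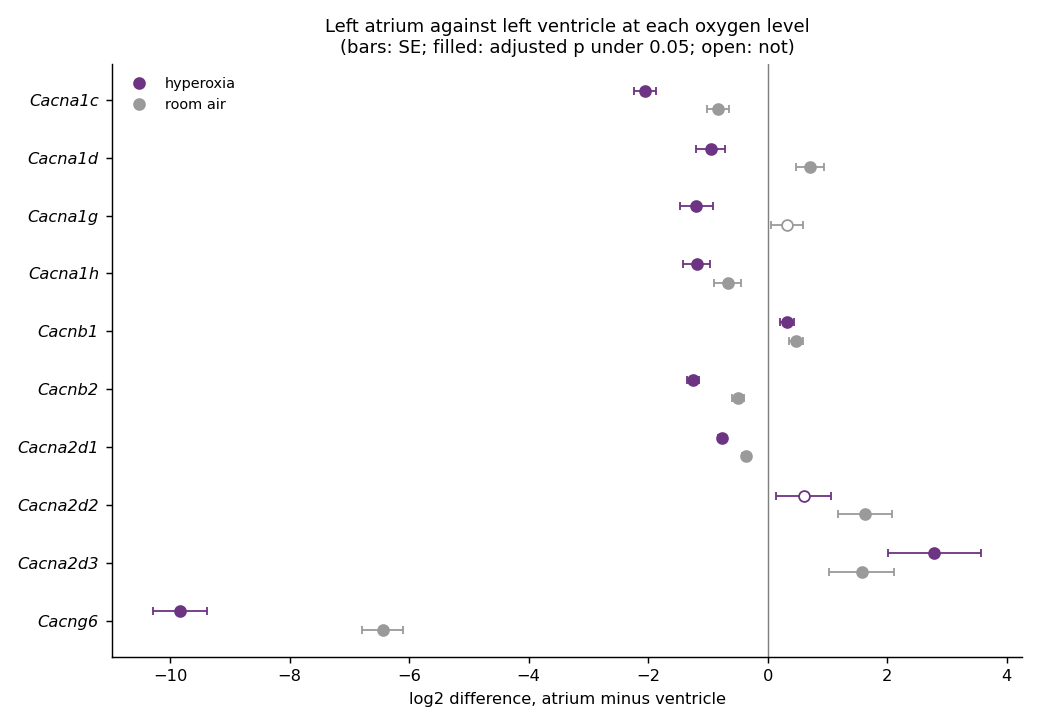
Log2 difference between left atrium and left ventricle for each subunit, under hyperoxia and in room air, with the standard error as bars and filled points where the adjusted p was under 0.05. Cacna1d lies at -0.95 under hyperoxia and at 0.70 in room air, and Cacng6 lies farthest from 0 at both.

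The shares of subunits within each class (pores, beta and alpha2delta) were computed from CPM per kb of exon. These shares are descriptions of the same counts and carry no test. Among the 4 pores Cacna1c made up 38.4 ± 2.44% in hyperoxic and 34.7 ± 2.81% in room-air atria, and 53.2 ± 5.14% in hyperoxic and 51.2 ± 3.20% in room-air ventricles (SD, n = 5 each). Cacna1g made up 37.3 ± 3.66% and 47.7 ± 3.51% in the atria, and 28.9 ± 4.51% and 30.8 ± 2.50% in the ventricles, in the same order. Together the 2 T-type pores held 56.8 ± 2.98% of the transcripts of these 4 pores in hyperoxic and 59.2 ± 3.27% in room-air atria, and these ranges overlap. Without division by exon length they held 39.5 ± 2.84% and 42.4 ± 3.3%, so that their majority rests on the exon lengths used. Cacna1a, a pore outside these 4, was at 0.697 CPM per kb in hyperoxic and 1.24 CPM per kb in room-air atria, above Cacna1d.

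Within the T-type pair the share of Cacna1h was 32.9, 32.9, 30.5, 40.7 and 35.2% in hyperoxic atria 1 to 5, against 16.8, 19.6, 20.2, 21.5 and 20% in room-air atria. Every hyperoxic atrium was above every room-air atrium, the tilted libraries included, and without those the hyperoxic mean for Cacna1h was 32.9%. The ventricles held 34.2 ± 3.87% under hyperoxia and 32.8 ± 2.57% in room air, and the range of the hyperoxic ventricles held 4 of the 5 hyperoxic atria. Within the L-type pair Cacna1d held 11.0 ± 2.68% in hyperoxic and 14.8 ± 1.01% in room-air atria, which overlap, and 5.25 ± 0.959% and 5.58 ± 1.13% in hyperoxic and room-air ventricles.

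Cacna2d1 made up most of the alpha2delta transcripts everywhere, with 89.1 ± 1.69% in hyperoxic and 80.7 ± 1.13% in room-air atria, and 95.6 ± 2.10% in hyperoxic and 94.5 ± 5.12% in room-air ventricles. Cacna2d2 held 10.3 ± 1.71% in hyperoxic and 17.6 ± 1.28% in room-air atria, without overlap.

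Among the 4 beta genes Cacnb3, from the list of other subunits, held the largest share in each group: 65.7 ± 1.97% in hyperoxic and 70.8 ± 1.66% in room-air atria, and 44.8 ± 3.80% in hyperoxic and 54.1 ± 2.38% in room-air ventricles. Cacnb2 held 15.4 ± 1.28% and 15.6 ± 1% in the atria, and 38.1 ± 4.08% and 31.2 ± 2.27% in the ventricles. Cacnb1 held 17.8 ± 1.74% in hyperoxic and 12.2 ± 1.08% in room-air atria. Without division by exon length Cacnb2 held 65.1 ± 3.65% in hyperoxic and 58.3 ± 2.48% in room-air ventricles, so that its rank against Cacnb3 there rests on the exon lengths used.

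**Figure D5:**
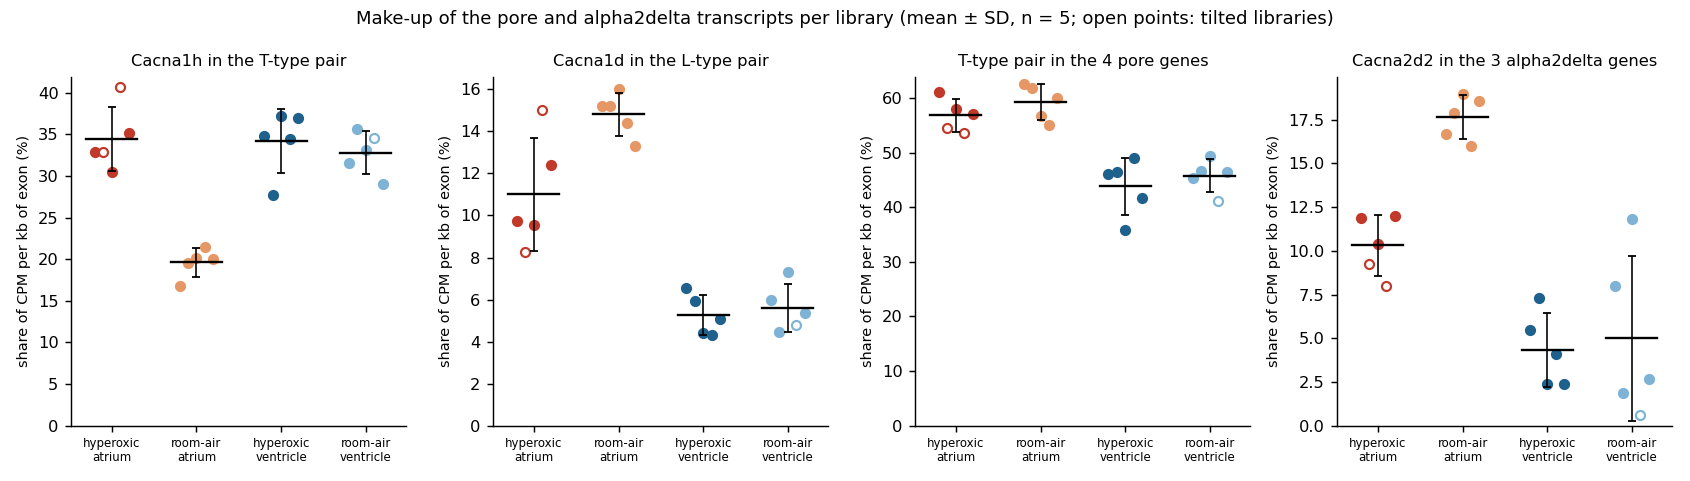
Share of CPM per kb of exon in each library: Cacna1h in the T-type pair, Cacna1d in the L-type pair, the T-type pair among the 4 pores, and Cacna2d2 among the alpha2delta genes, with hyperoxic atria, room-air atria, hyperoxic ventricles and room-air ventricles from left to right, the mean and SD of 5 libraries, and the tilted libraries as open points. The share of Cacna1h is 30.5 to 40.7% in hyperoxic atria and 16.8 to 21.5% in room-air atria.

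Of the other 16 voltage-gated calcium channel genes 7 were tested; the rest were too scarce, and Cacng3 had no count in any library. In the atrium 5 of the 7 were lower after hyperoxia and none was higher, where 43.9% of all genes tested were called (24.2% lower, 19.7% higher). Their median log2 difference was -0.93, against -0.06 for all genes tested. Cacnb3, a beta subunit found in many tissues, averaged 36.1 ± 4.66 CPM in hyperoxic and 61.0 ± 4.30 CPM in room-air atria (log2 difference -0.76, adjusted p = 1.5e-05). Cacng7, a gamma subunit known from neurons, averaged 7.69 ± 1.70 and 23.4 ± 1.42 CPM (-1.60, adjusted p = 1.6e-05), and Cacna1a, the pore of neuronal P/Q-type channels, 7.96 ± 0.885 and 14.1 ± 1.03 CPM (-0.83, adjusted p = 0.00026; SD, n = 5 each). For each of these 3 the hyperoxic and room-air atria did not overlap, as in 32.9% of all genes tested.

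In the ventricle, where 10.9% of all genes tested were called, Cacnb3 alone of the 7 was called. It was lower, at 24.0 ± 4.64 CPM in hyperoxic and 32.7 ± 2.15 CPM in room-air ventricles (-0.44, adjusted p = 0.02). The responses of the chambers differed for Cacng7 (-1.60, adjusted p = 0.0013) and Cacna1a (-0.62, 0.037), and for Cacnb3 the difference was not called (-0.32, 0.13). Between the chambers under hyperoxia Cacnb3 was higher in the atrium (0.58, adjusted p = 0.00022), and Cacnb4 (-0.99, 0.0012) and Cacna1s (-2.18, 0.0046) were lower. In room air Cacnb3 (0.90, adjusted p = 8.9e-07), Cacng7 (1.46, 2.8e-05) and Cacna1a (0.58, 0.0044) were higher in the atrium, and Cacna1s (-1.85, 0.0074) was lower. Of all genes tested 36.5% were called for the difference between the responses. Between the chambers 48.8% were called under hyperoxia and 55.0% in room air.

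Partners that regulate the channels were tested as a list of 25, of which 3 were higher and 10 lower in hyperoxic atria, with a median log2 difference of -0.24, where 43.9% of all genes tested were called (19.7% higher, 24.2% lower). Adrb1, the beta-1 adrenergic receptor that raises L-type current through protein kinase A, differed by -1.23 (SE 0.11, adjusted p = 1.1e-08). Gem, a small GTPase that inhibits calcium channels by binding their beta subunit, differed by -1.13 (SE 0.16, adjusted p = 8.9e-06), and Cachd1, an alpha2delta-like protein, by -0.82 (SE 0.13, 1.7e-05). Rem1 (0.71, adjusted p = 0.00024), a relative of Gem, and Prkar1a (0.41, 0.00085), a regulatory subunit of protein kinase A, were among the higher genes and were named after their values were seen.

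In the ventricle, where 10.9% of all genes were called, 1 partner was higher and 1 lower after hyperoxia, Akap5, a kinase anchoring protein (0.56, adjusted p = 0.044), and Bin1, which organises T-tubules (-0.42, 0.047). The chambers' responses differed for 11 of the 25 partners, 8 of them lower in the atrium, against 36.5% of all genes (19.5% lower), with Adrb1 (-1.10, adjusted p = 2e-05), Cachd1 (-0.97, 0.00033) and the catalytic kinase subunit Prkaca (-0.50, 0.0027) the clearest. Between the chambers 2 partners were higher and 11 lower in the atrium under hyperoxia, against 48.8% of all genes called, led by Prkaca (-1.06, adjusted p = 5.8e-10), Cachd1 (-1.21, 4.2e-08) and Akap5 (-1.68, 8.2e-08). In room air 8 were higher and 10 lower, against 55.0% of all genes called, among them Prkaca (-0.56, adjusted p = 7.3e-06) and Adrb1 (0.67, 1.7e-05). Adrb1 was lower in the atrium under hyperoxia (-0.43, adjusted p = 0.0021), so that its order between the chambers, like that of Cacna1d, was not the same at the 2 oxygen levels.

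Calcium handling downstream of the channels was followed in 14 genes of the sarcoplasmic reticulum and of sodium-calcium exchange, whose median log2 difference in the atrium was -0.31. The shares of all genes called in each comparison are those given for the partners. In hyperoxic atria 1 was higher, the exchanger Slc8a1 (0.42, adjusted p = 0.0077, named after its value was seen), and 6 were lower, with the luminal calcium binding protein Hrc (-0.97, 8.7e-06), the pump Atp2a2 (-0.76, 2.1e-05) and the release channel Ryr2 (-0.88, 2.3e-05) the clearest. In hyperoxic ventricles 4 were higher and 2 lower: Ryr2 (0.71, adjusted p = 0.0036) and Atp2a2 (0.60, 0.0036) were higher and Casq1 (-1.12, 0.0023), a calsequestrin, was lower.

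The responses of the chambers thus had opposite signs for Ryr2 and Atp2a2, and the difference was -1.59 for Ryr2 (adjusted p = 5.3e-06), -1.36 for Atp2a2 (5.1e-06) and -0.97 for Hrc (0.0008), among 7 lower and 2 higher of the 14. Between the chambers 3 were higher and 7 lower in the atrium under hyperoxia, led by the pump inhibitor Pln (-4.06, adjusted p = 1.1e-14), Ryr2 (-1.48, 9.6e-09) and Asph (-0.63, 3.2e-07). In room air 5 were higher and 4 lower, led by Pln (-3.27, adjusted p = 1.6e-13), Atp2a2 (0.88, 1.5e-06) and Sri (-0.69, 2.3e-06).

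The genes whose pattern over the 20 libraries was most like that of each pore were sought among 10775 genes with a mean of at least 5 CPM, by the root mean square difference of centred log2 CPM. Cacna1c was nearest to Shank3 (0.195) and Efr3b (0.211). Cacna1d was nearest to Chd6 (0.262) and Zfp46 (0.284), and Cacna1g to Zfp46 (0.224) and Apc2 (0.239). Cacna1h was nearest to Malt1 (0.195) and Caskin2 (0.220). Zfp46 was near both Cacna1d and Cacna1g, with means of 24.5 CPM in hyperoxic atria, 65.4 in room-air atria, 47.0 in hyperoxic ventricles and 48.2 in room-air ventricles.

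Of the 10 subunits 5 share exonic bases with a gene on the opposite strand (Cacna1d 589, Cacna1h 158, Cacnb1 80, Cacnb2 968 and Cacna2d2 82 bases) and none with a gene on the same strand. The strand setting of the counting is not given in the sources used here.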

How the data were processed

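Stranded, poly(A)-selected libraries of left atrium and left ventricle were sequenced, 5 per group, per the labels' protocols; for the RNA extraction the samples are labelled with a Direct-zol kit and the series with an RNeasy kit. The deposited files hold raw counts of reads per gene symbol, not normalized, made by the authors with fastp 0.20.1, STAR 2.7.6a, Subread 2.0.1 with featureCounts, and Salmon 1.3.0, on GRCm38.p6, per the submitters' processing notes. Positions and exon lengths came from GENCODE M21 on the same build, by symbol (53186 symbols matched).

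Counts were fitted in R 4.3.3 with edgeR 4.0.16: filterByExpr (16598 of 55367 genes), TMM scaling, and a robust quasi-likelihood model with 1 coefficient per group on all 20 libraries (biological coefficient of variation 0.183). Adjusted p are Benjamini-Hochberg over all genes tested, called under 0.05. The SE is the log2 difference over the square root of F, and 95% intervals are 1.96 SE. Intervals of summed counts are exact and cover counting error only. The length slope is the slope on log2 exon length, over 11128 genes, of a library's log2 level minus the mean log2 level of all libraries of its chamber. That mean covers both oxygen levels, so the slope can hold part of an oxygen difference. The script was tested on simulated counts.

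All 10 subunits were reported. Of the lists, called genes with the 3 smallest p per comparison were named, with other subunits above 5 CPM; some genes of the partner list are not reported here by name. Members and lists were chosen with earlier results of these data known. Libraries of 1 group differed by a chi-square per degree of freedom of at least 13.26, so none repeats another; p-values measure the spread between mice. DESeq2 1.42.0, limma 3.58.1, other scalings and filters, covariates and omitted libraries were alternatives.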

Additional observations from a re-analysis of the deposited data

Results flagged for a closer look

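Cacnb1 in hyperoxic atrium 4 stood apart from its group: this library held 8.59 CPM, the next lowest 11.1 CPM, and the gap was 0.727 of the group's range. It was the 1 library apart in the 40 groups of 5 examined (10 subunits in 4 groups), where chance flags about 1 in 20 groups. The library is one of the tilted ones. For 6 subunits the response to hyperoxia differed between the chambers by the test of the difference itself: -1.22 for Cacna1c, -1.65 for Cacna1d, -1.53 for Cacna1g, -0.75 for Cacnb2, -0.40 for Cacna2d1 and -3.39 for Cacng6 (atrial minus ventricular log2 difference).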

How the results depend on the processing

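Of 10 subunits, 8 were called in the atrium, 1 in the ventricle and 6 for the difference between the chambers' responses. In the atrium the count was 5 with a filter of 1 CPM in 5 libraries, 3 with slope and Y-linked reads as covariates, and 5 without the tilted libraries and room-air atrium 1, which was chosen after seeing the data; leaving out 1 library gave 6 to 8. The difference gave 3 with slope and Y-linked reads and 6 to 7 with 1 library left out. In the ventricle the count was 0 with the 1 CPM filter, on the ventricles alone, with Y-linked reads, with slope and Y-linked reads, with Myl7, and on libraries where Y-linked reads exceed Xist reads. It was 2 with DESeq2, with limma voom, without the tilted libraries, and without those and room-air atrium 1. Leaving out 1 library gave 0 to 1, with 0 without hyperoxic ventricle 4 or 5 or room-air ventricle 1. The chamber counts of 9 gave 8 to 9 with 1 library left out; under hyperoxia the count was 7 on the compared libraries alone and on libraries where Y-linked reads exceed Xist reads, and in room air 7 with the slope and 6 with slope and Y-linked reads. On the compared libraries alone the atrial count was 6. The share of all genes called in the ventricle was 1.41% with Y-linked reads and 0.681% with Myl7 as a covariate. Cacna2d3 and Cacng6 had too few counts for the test in some of these settings. Causes were not tested.

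Some values that were not called changed sign. In the atrium, with the length slope Cacna1h was at 0.11, with Y-linked reads Cacnb1 was at 0.045, and with both Cacna1h was at 0.18 and Cacnb1 at 0.24. In the ventricle, with the slope Cacna1c was at -0.10, Cacna1d at -0.19, Cacna1g at -0.37, Cacna1h at -0.24 and Cacnb2 at -0.062, and with both covariates Cacna1d was at -0.13, Cacna1g at -0.22, Cacna1h at -0.21 and Cacnb2 at -0.064. Cacna1g in the ventricle was at -0.046 without the tilted libraries, with or without room-air atrium 1. With 1 library left out Cacna1g ran from -0.049 (without hyperoxic ventricle 2) to 0.25, and was below 0 without room-air ventricle 4 too. Cacnb1 ran from -0.016 (without hyperoxic ventricle 2) to 0.14. Cacna2d2 in the ventricle was at 0.21 with voom, 1.19 with Myl7, and from -0.38 to 0.59 with 1 library left out, above 0 without hyperoxic ventricle 4 or 6 or room-air ventricle 1 or 3. For the difference between the responses Cacna2d3 was at -0.056 with voom and -0.44 with Myl7, Cacna1h at 0.35 with the slope, and with both covariates Cacna1h was at 0.39, Cacnb1 at 0.12 and Cacna2d2 at 0.11. Between the chambers in room air Cacna1g was at -0.23 with the slope and -0.30 with both.

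Replicate numbers as a block over all libraries left 8 calls in the atrium, 1 in the ventricle, 7 for the difference, and 9 and 9 between the chambers; Cacna2d2 in the ventricle was then at 0.46. As a block within an oxygen level the counts were 7 for the difference, 8 between the chambers under hyperoxia and 9 in room air. Deviations of same-numbered atria and ventricles correlated from 0.02 to 0.33, not all above 0.1, and 4 of 9 atria correlated best with their own number. Same-numbered atria and ventricles also agreed in whether Y-linked reads exceeded Xist reads. Hyperoxic atrium 2 and ventricle 2, for example, held 5602 and 5470 Y-linked and 265 and 340 Xist reads. In room air all libraries held more Y-linked reads, so this measure cannot tell the numbers apart there. Whether the numbers pair the samples is not settled, and the main fit took all libraries as independent.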
